A study of Mus musculus with 6 samples.

Results

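Aminoacyl-tRNA synthetases are the enzymes that load each amino acid onto its transfer RNA before translation. The set described here holds 36 genes of the 22740 protein-coding genes in the table, 20 for the cytosolic enzymes and 16 for the mitochondrial ones, whose symbols end in 2. They were chosen by symbol, and all 36 were found under the listed names and passed the filter on low counts. RNA was sequenced from B16 cells, a mouse melanoma line that the labels also describe as B16-F10 and as lacking the BRAF V600E allele. The cells were kept for 3 days in the vehicle DMSO or in 1 uM CX-5461, a compound that blocks transcription of ribosomal RNA genes by RNA polymerase I, with 3 libraries in each group. The labels do not say whether the libraries came from separate cultures, so the spread between them may be technical.

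Each cytosolic enzyme serves the ribosomes that translate nuclear genes, and a separate nuclear gene usually encodes the enzyme imported into mitochondria. Gars and Kars, for glycine and lysine, serve both compartments from a single gene each, and Qars has no mitochondrial partner because mitochondria make their glutaminyl-tRNA through Ears2 and an amidotransferase. Many cytosolic synthetase genes are known targets of ATF4, the transcription factor that cells make when amino acids are short or the eIF2 alpha kinases are active. Several of the cytosolic enzymes sit in a large multi-synthetase complex held together by the scaffold proteins of Aimp1, Aimp2 and Eef1e1.

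Library totals ran from 17573990 to 22908309 counts, and a member had between 96 and 40774 counts in a library. Levels are CPM, counts divided by a library total scaled with its TMM factor, which corrects for differences in RNA composition. All 7 melanocyte markers were present, at 96.3 CPM for Mitf to 8576 CPM for Dct in DMSO, and at 274.0 CPM for Tyr to 11010 CPM for Dct in CX-5461. All 7 were called higher with CX-5461, by 0.15 for Pmel to 2.18 for Mitf on the log2 scale with a median of 0.56. Of 12 markers of blood, epithelial, endothelial and fibroblast cells only Lyz2, Col1a1 and Col1a2 passed the filter. Lyz2 was at 0.871 and 4.20 CPM, Col1a1 at 6.94 and 2.81 and Col1a2 at 2.22 and 25.1 in DMSO and CX-5461, and the part of these markers in the results below was not tested. Among all 12198 tested genes, 73.7% had an adjusted p below 0.05 in the edgeR quasi-likelihood test, 36.5% lower and 37.2% higher with CX-5461. The groups did not overlap for 76.2% of tested genes. With TMM scaling the median change over all tested genes was -0.005 on the log2 scale. A member's change is relative to that scaling, in a transcriptome in which 73.7% of tested genes were called.

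The cytosolic synthetases were mostly lower with CX-5461, by less than 2-fold each, while the mitochondrial ones went both ways. Of the 20 cytosolic genes, 16 fell, 1 rose and 3 did not pass, and 80% lower stands against 36.5% of all genes. Their median log2 change was -0.58, a 1.49-fold fall. Of the 16 mitochondrial genes, 7 fell (43.8%, beside 36.5% of all genes), 4 rose (25%, beside 37.2%) and 5 did not pass. Their median was -0.05. The groups did not overlap for 17 cytosolic and 10 mitochondrial members, 75% of all 36 and close to the share of all genes. In the values below, log2 changes are CX-5461 minus DMSO with their standard errors.

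**Figure D1:**
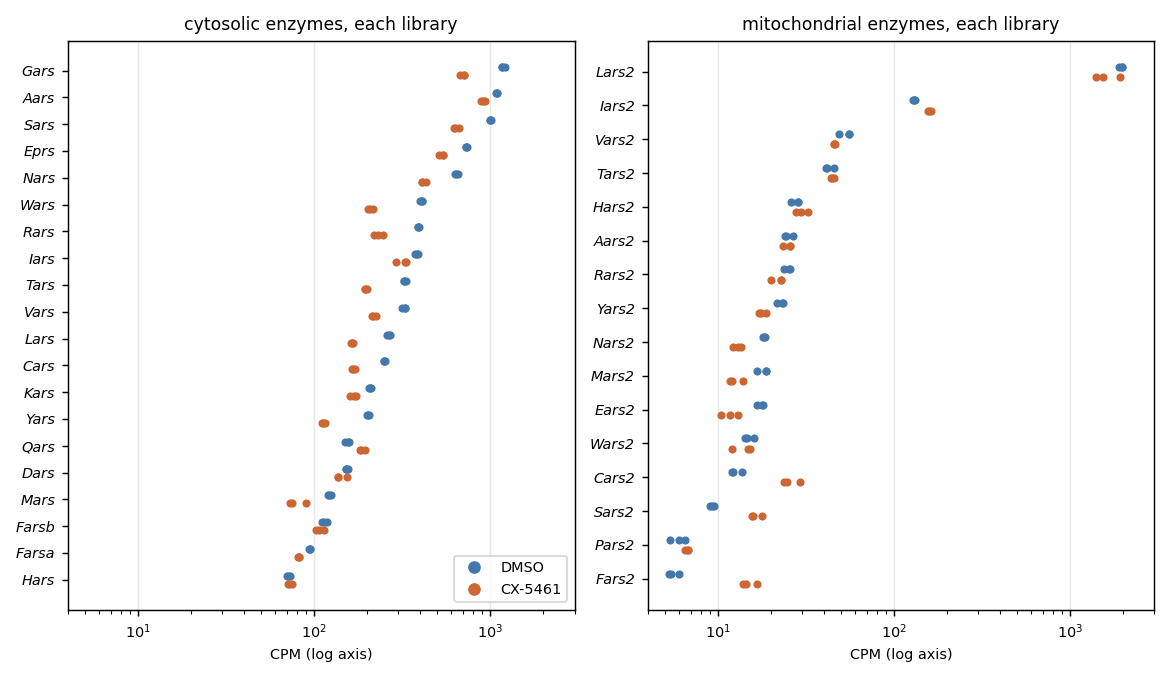
CPM of each of the 36 synthetase genes in each of the 6 libraries, on a log axis, with cytosolic enzymes on the left, mitochondrial enzymes on the right and genes ordered by their mean in DMSO. CX-5461 points lie left of the DMSO points for 16 cytosolic genes, right of them for Qars, and to the right for Fars2, Cars2, Sars2 and Iars2 among the mitochondrial genes.

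Wars, the tryptophan enzyme (chromosome 12, 108860030 to 108894174, GRCm38), had the largest fall. It was at 409.0, 398.2 and 408.5 CPM in the DMSO libraries and at 207.3, 203.1 and 215.5 CPM in the CX-5461 libraries. The groups were far apart, with a log2 change of -0.96 ± 0.04 (adjusted p = 2.13e-11), a 1.94-fold fall. Yars, the tyrosine enzyme, was at 204.1, 200.1 and 200.8 CPM in DMSO and at 112.1, 115.0 and 111.0 CPM in CX-5461. All CX-5461 values again lay below all DMSO values, with a change of -0.84 ± 0.04 (adjusted p = 1.102e-10). Gars, the glycine enzyme used in both compartments, had the highest level of the set per kilobase of exon, 378.1 CPM per kb in DMSO. It went from 1168, 1158 and 1212 CPM to 705.1, 709.6 and 669.1 CPM, a 1.70-fold fall with no overlap (adjusted p = 3.487e-10).

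Rars, which charges arginine within the multi-synthetase complex, was at 388.5, 389.3 and 395.7 CPM in DMSO and 230.9, 244.9 and 219.4 CPM in CX-5461. Its groups did not overlap and its change was -0.76 ± 0.05 (adjusted p = 9.244e-10). Tars, the threonine enzyme, was at 324.7, 322.4 and 331.5 CPM and then at 194.3, 199.3 and 193.1 CPM. The change of Tars was -0.74 ± 0.04 (adjusted p = 3.051e-10). Lars, the leucine enzyme, which also acts as a leucine sensor for mTORC1, went from 266.1, 260.2 and 268.7 CPM to 163.2, 166.4 and 161.2 CPM. Its DMSO and CX-5461 values were apart, and it fell 1.62-fold (adjusted p = 7.13e-10).

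The other cytosolic genes that fell did so by less. Sars (serine), Mars (methionine), Nars (asparagine), Cars (cysteine), Vars (valine) and Eprs, a fused enzyme for glutamate and proline, changed by -0.64, -0.62, -0.62, -0.59, -0.57 and -0.47 on the log2 scale. Kars (lysine), Iars (isoleucine), Aars (alanine) and Farsa, the alpha subunit of the phenylalanine enzyme, changed by -0.32, -0.27, -0.25 and -0.20. Each of these 10 genes passed, with adjusted p from 1.616e-09 for Sars to 0.0008569 for Farsa. Mars shares 68 exonic bases on the opposite strand with Ddit3, which itself changed by -1.91 ± 0.06. Whether the counting used strand is not given in the sources used here, so reads from that stretch cannot be assigned between them. Of the distinct 50-base stretches of Iars transcripts, 7.15% also occur in Gm4849, a gene elsewhere, so the value of Iars is uncertain to that extent, and the share was at most 1.42% for every other member. With the gene-span offset the changes of Aars and Farsa were -0.17 and -0.12, still called lower.

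Qars, the glutamine enzyme (chromosome 9, 108507706 to 108515941), was the only one of the 20 cytosolic genes called higher. It was at 149.3, 158.5 and 154.8 CPM in DMSO and at 184.0, 181.4 and 194.0 CPM in CX-5461. The CX-5461 libraries all lay above the DMSO libraries, with a change of 0.27 ± 0.05 (adjusted p = 6.434e-05). Farsb, the beta subunit of the phenylalanine enzyme, was at 113.8 ± 3.65 CPM (SD, n = 3) in DMSO and 107.4 ± 5.26 in CX-5461, with overlapping groups (edgeR adjusted p = 0.1402). Dars, the aspartate enzyme, was at 152.9 ± 2.23 and 142.0 ± 9.95 CPM (adjusted p = 0.07252), also with overlap. Without CX-5461 replicate 2 both passed as lower, at -0.13 for Farsb and -0.17 for Dars (edgeR adjusted p = 0.01164 and 0.0005973), and with library totals only, at -0.16 and -0.18. Farsb also passed with the gene-span offset (-0.14) and Dars with no filter (-0.12), whereas a GC offset gave Dars 0.04. Hars, the histidine enzyme, was at 71.4 ± 1.51 and 72.4 ± 1.87 CPM (edgeR adjusted p = 0.7468), and an offset for gene span called it higher at 0.11 (adjusted p = 0.03911, up to 0.9808 over alternatives). Farsb shares 248 exonic bases with Sgpp2 on the opposite strand, a gene that rose by 3.29 on the log2 scale.

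The cytosolic genes were divided by 3 textbook properties, with lists chosen while earlier results of these data were known. All 13 genes widely described as ATF4 targets (Aars, Cars, Eprs, Gars, Iars, Lars, Mars, Nars, Sars, Tars, Vars, Wars and Yars) fell (100%, beside 36.5% of all genes), between -0.96 and -0.25, with a median of -0.62. Of the other 7 (Dars, Farsa, Farsb, Hars, Kars, Qars and Rars), 3 fell, 1 rose and 3 did not pass; the median was -0.11, and 42.9% lower is near the 36.5% of all genes. Rars stood apart from these other genes, since its fall was as large as those of the described targets. Of the 8 members of the multi-synthetase complex, 6 fell (75%, beside 36.5% of all genes), 1 rose and 1 did not pass; the median was -0.39. Class I enzymes, built on a Rossmann fold, had 9 of 10 lower (90%) and a median of -0.60, and class II enzymes had 7 of 10 lower (70%) and a median of -0.29, both beside the same 36.5%. These divisions overlap, since all class I genes except Qars and Rars are also described ATF4 targets. In class II, Dars, Farsa, Farsb, Hars and Kars are not. The contrast by class is therefore not separate from that by described ATF4 target. No test of the differences between these lists was made.

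ATF4 binds composite C/EBP-ATF elements, and the promoters of the members were searched for the letters TGATGNAA on both strands because most cytosolic genes moved together. RefSeq promoters of build GRCm38.p6, 250 bases before to 50 after a start, were found for 13 cytosolic and 14 mitochondrial genes. A match was found for 5 of the 13 cytosolic genes and 0 of the 14 mitochondrial ones, where 3.97% of the 32851 promoters in the table hold one. All 5, among them Gars, Iars, Tars and Yars, fell. So did 5 of the 8 cytosolic genes without a match (Eprs, Farsa, Kars, Mars and Sars), and Qars rose. Of the 14 mitochondrial genes, all without a match, 7 fell and 4 rose. Among all tested genes 36.5% were lower and 37.2% higher. No promoter entry was used for Cars, Hars, Lars, Nars, Rars, Vars, Wars, Hars2 and Pars2. A match is a description of letters and not a binding site, and a role of ATF4 in these changes was not tested. The stretches around the matches of these 4 genes follow 5′ to 3′ on the strand of the gene with the matched letters in capitals, as TGATGNAA or its reverse complement, beside those of the ATF4 targets Asns and Chac1. Of 6 genes of the ATF4 response and tRNA export that were searched, Trib3 also held a match and Atf4, Ddit3 and Xpot held none. All 6 fell, with or without a match, beside 36.5% of all genes, and they were chosen with earlier results of these data known.
Tars (chr15:11399655-11399684, minus strand): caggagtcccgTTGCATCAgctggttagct
Gars (chr6:55037960-55037989, plus strand): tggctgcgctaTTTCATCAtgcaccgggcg
Iars (chr13:49682126-49682155, plus strand): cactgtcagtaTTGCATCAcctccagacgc
Yars (chr4:129189895-129189924, plus strand): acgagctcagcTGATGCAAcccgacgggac
Asns (chr6:7693214-7693243, minus strand): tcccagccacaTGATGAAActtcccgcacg
Chac1 (chr2:119351038-119351067, plus strand): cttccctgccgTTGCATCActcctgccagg

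The match in Tars began 15 bases before the start, and that in Gars 30 bases before. Those in Iars and Yars began 8 and 4 bases into the transcript. The 150 bases before the start of Gars and of Tars, among the 6 cytosolic genes with the largest falls, show the matched letters in their setting.
Gars (chr6:55037851-55038000, plus strand): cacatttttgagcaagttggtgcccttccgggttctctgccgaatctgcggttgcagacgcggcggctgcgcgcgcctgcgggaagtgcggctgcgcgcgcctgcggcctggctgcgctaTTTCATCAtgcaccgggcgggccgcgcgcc
Tars (chr15:11399659-11399808, minus strand): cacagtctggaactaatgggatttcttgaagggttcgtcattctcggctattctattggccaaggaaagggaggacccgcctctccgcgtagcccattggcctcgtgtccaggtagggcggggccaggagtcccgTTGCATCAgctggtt

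The mitochondrial enzymes split into genes that rose, fell or did not pass. Fars2, the mitochondrial phenylalanine enzyme (chromosome 13, 36117412 to 36726280), had the largest rise. It was at 5.25, 6.03 and 5.42 CPM in DMSO and at 14.4, 16.6 and 13.9 CPM in CX-5461. The groups did not overlap, and the change was 1.42 ± 0.11 (adjusted p = 1.613e-08). Fars2 spans 608.9 kb, where the median of the 36 genes is 25.3 kb, and with an offset for gene span its change was -0.18 (adjusted p = 0.2232), so its call ended and its direction turned. Fars2 also shares 501 exonic bases with Nrn1 and 115 with Lyrm4 on the opposite strand.

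Cars2, the mitochondrial cysteine enzyme (chromosome 8, 11513977 to 11550783), rose from 13.8, 12.2 and 11.9 CPM to 24.7, 23.7 and 29.4 CPM. This was 2.05-fold with no overlap (adjusted p = 1.242e-07), and all alternatives kept it between 0.93 and 1.10 on the log2 scale. Sars2, the mitochondrial serine enzyme, was at 9.51, 9.03 and 9.27 CPM in DMSO and at 17.9, 15.8 and 15.6 CPM in CX-5461. Its CX-5461 values were all higher, with a change of 0.83 ± 0.10 (adjusted p = 1.096e-06). Iars2, the mitochondrial isoleucine enzyme, was at 130.3, 127.6 and 131.6 CPM and then at 161.6, 156.6 and 157.3 CPM. It rose by 0.29 ± 0.04 (adjusted p = 2.182e-05), and 22.9% of its exonic bases overlap Rab3gap2 on the opposite strand, a gene at -0.04 (adjusted p = 0.5182).

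Ears2, which charges glutamate in mitochondria and also starts the glutaminyl-tRNA route, fell from 16.6, 17.8 and 17.9 CPM to 12.9, 10.5 and 11.8 CPM. The groups did not overlap (-0.57 ± 0.09, adjusted p = 6.058e-05). Mars2, the mitochondrial methionine enzyme, was at 16.8, 18.8 and 18.8 CPM in DMSO and 12.03, 11.74 and 13.95 CPM in CX-5461. Its change was -0.53 ± 0.09 (adjusted p = 0.0001153). Nars2, for asparagine, went from 18.1, 18.5 and 18.3 CPM to 12.2, 13.6 and 13.1 CPM, with the groups again apart. The change of Nars2 was -0.50 ± 0.08 (adjusted p = 5.592e-05). A GC offset brought Mars2 to -0.31 and the gene-span offset brought Nars2 to -0.78, both still called lower.

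Yars2 (tyrosine), Vars2 (valine) and Rars2 (arginine) fell by less, with changes of -0.35 ± 0.08, -0.21 ± 0.06 and -0.18 ± 0.08 (adjusted p = 0.0008768, 0.005658 and 0.04528). The call of Rars2 ended under 10 of the 17 alternatives, among them leaving out CX-5461 replicate 1 (-0.12, edgeR adjusted p = 0.1763) or any one of the DMSO libraries (-0.22 to -0.17), and that of Vars2 with the gene-span offset, at -0.13. Aars2 (alanine), Hars2 (histidine), Pars2 (proline), Tars2 (threonine) and Wars2 (tryptophan) did not pass, at -0.009, 0.11, 0.17, 0.06 and -0.09 with adjusted p of 0.9194, 0.188, 0.225, 0.4176 and 0.426. For these 5 genes the groups overlapped. With the gene-span offset Hars2 and Tars2 were called higher at 0.19 and 0.15 and Wars2 lower at -0.28 (edgeR adjusted p = 0.03123, 0.02933 and 0.02084). Aars2 turned to 0.08 with that offset. Hars and Hars2 lie on opposite strands and share 195 exonic bases.

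Lars2, the mitochondrial leucine enzyme (chromosome 9, 123366927 to 123462666), stood apart from the other mitochondrial genes in level. It was at 1889, 1968 and 1972 CPM in DMSO and at 1398, 1912 and 1534 CPM in CX-5461. CX-5461 replicate 2 lay within the DMSO range, so the groups overlapped although the gene was called lower at -0.27 ± 0.08 (adjusted p = 0.007706). Without that library the change was -0.41 (edgeR adjusted p = 2.591e-08), and with DESeq2 on all libraries it did not pass (-0.27, adjusted p = 0.06833). Lars2 was at -0.44 once gene span was offset. Per kilobase of exon Lars2 held 175.2 CPM per kb in DMSO, where Iars2, the next mitochondrial gene, held 14.6. The gene took 81.3% to 82.4% of the summed mitochondrial CPM in DMSO libraries and 75.1% to 80.8% in CX-5461 libraries. Of the distinct 50-base stretches of Lars2 transcripts, 0.196% also occur in transcripts of genes elsewhere. That search covered annotated transcripts only, and whether other RNA adds to the counts of Lars2 was not tested.

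Apart from Lars2, levels per kilobase separated the compartments. The other 15 mitochondrial genes were below every cytosolic gene in both groups. In DMSO the cytosolic levels ran from 20.7 CPM per kb for Farsa to 378.1 for Gars, with a median of 47.9, and the mitochondrial median was 4.31. In CX-5461 the medians were 35.2 and 5.09 CPM per kb. Gars stayed the highest, and Fars2, the lowest of the set in DMSO at 0.968 CPM per kb, was at 2.61 in CX-5461, above Mars2, Nars2, Pars2, Ears2 and Wars2.

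Summed over the 20 cytosolic genes, the level was 8069, 8054 and 8153 CPM in DMSO and 5616, 5666 and 5625 CPM in CX-5461. This is a 1.44-fold lower sum with groups far apart. As a share of all counts, without TMM scaling, the sum was 0.830% ± 0.003 in DMSO and 0.549% ± 0.004 in CX-5461 (SD, n = 3), which is 1.51-fold lower. The sum of the 16 mitochondrial genes was 2371 ± 41.9 and 2073 ± 262.1 CPM, most of it Lars2. Without Lars2, an alternative added after seeing the data, it was 433.7, 429.6 and 421.0 CPM in DMSO and 462.6, 454.8 and 458.5 CPM in CX-5461. The mitochondrial sum without Lars2 was thus higher in all 3 CX-5461 libraries, with means of 428.1 CPM in DMSO and 458.6 in CX-5461. Iars2 alone went from a mean of 129.8 to 158.5 CPM. More of the 16 mitochondrial genes fell (7, Lars2 among them) than rose (4), so the higher sum does not describe most of them. The ratio of the cytosolic to the mitochondrial sum was 3.41 ± 0.06 and 2.75 ± 0.32 with Lars2, and 18.9 ± 0.40 and 12.3 ± 0.16 without it, and lower with CX-5461 in every library either way. In bulk RNA, less RNA of these genes per cell and fewer cells that express them cannot be told apart.

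**Figure D2:**
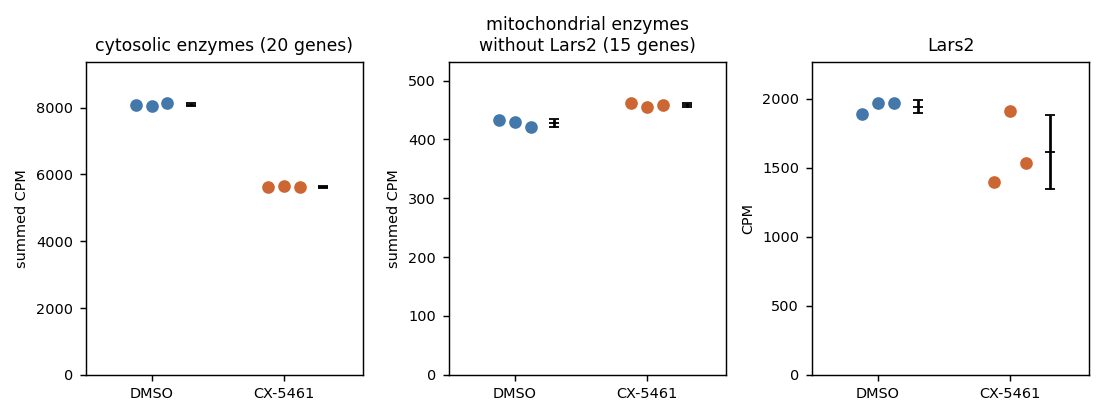
CPM in each library, summed over the 20 cytosolic genes, over 15 mitochondrial genes without Lars2, and for Lars2 alone, with the mean and SD of 3 libraries beside the points and axes from 0. The cytosolic sum lies near 8092 CPM in DMSO and 5636 in CX-5461, the mitochondrial sum without Lars2 near 428.1 and 458.6, and CX-5461 replicate 2 of Lars2 lies among the DMSO values.

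Setting both enzymes for the same amino acid against each other within each library gives 17 pairs, since Eprs has partners for both of its amino acids and Fars2 answers to both Farsa and Farsb. For 14 pairs the log2 ratio of cytosolic to mitochondrial CPM was lower in all 3 CX-5461 libraries than in all 3 DMSO libraries. The ratio was higher for 0 pairs, and the groups overlapped for 3. Among single genes the groups did not overlap for 76.2% of all tested genes, and no such share was computed for ratios. Eprs and Fars2 recur, so the 17 pairs are not independent. With 3 libraries against 3, the smallest two-sided p of the exact permutation test is 0.1, and these 14 pairs reached it (0.121 after Benjamini-Hochberg adjustment over the 17 pairs). No pair could therefore pass 0.05 in this design. With the gene-span offset, a comparison added after seeing the data, 3 of the 14 turned: the cytosolic change was above the mitochondrial one by 0.06 for Farsa and Fars2, by 0.03 for Farsb and Fars2 and by 0.26 for Nars and Nars2. The ratio for cysteine, Cars to Cars2, differed most among pairs without Fars2, from 4.18, 4.38 and 4.38 in DMSO to 2.79, 2.81 and 2.48 in CX-5461. Per kilobase of exon this was 21.8 times as much Cars as Cars2 in DMSO and 7.11 times in CX-5461. For serine, Sars to Sars2, the log2 ratio shifted by -1.47, from 6.75 ± 0.04 to 5.28 ± 0.14 (SD, n = 3; exact permutation p = 0.1).

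The tryptophan ratio, Wars to Wars2, shifted by -0.86 and the threonine ratio, Tars to Tars2, by -0.79. The smallest of the 14 shifts was that of asparagine, Nars to Nars2, at -0.12, where both genes fell. For glutamate (Eprs to Ears2), methionine (Mars to Mars2) and histidine (Hars to Hars2) the libraries of the groups overlapped. In the glutamate and methionine pairs both genes fell, and in the histidine pair neither passed. Leucine was the only pair in which the mitochondrial gene was the higher one per kilobase. The CPM per kilobase of Lars was 0.282 times that of Lars2 in DMSO and 0.211 times in CX-5461. Whether other RNA adds to the counts of Lars2, and so to this ratio, was not tested.

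**Figure D3:**
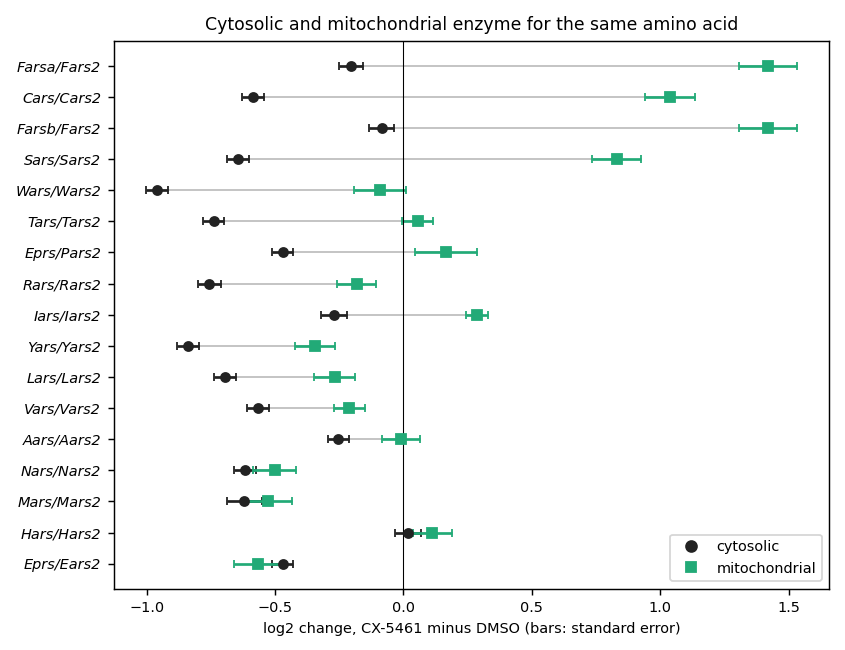
Log2 change (CX-5461 minus DMSO) of the cytosolic gene (black circle) and of the mitochondrial gene (green square) for each of 17 pairs. Pairs are ordered by the shift of their ratio. Bars are standard errors derived from the edgeR fit to 3 libraries a group, not the spread of those libraries. The circles lie left of the squares for all pairs except Eprs and Ears2, and the widest gaps are those with Fars2, Cars2 and Sars2.

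Genes that work beside the synthetases were grouped by function. Among the scaffold genes of the multi-synthetase complex, Eef1e1 fell by 0.57 and Aimp1 by 0.41, whereas Aimp2 rose by 0.26 (adjusted p = 9.957e-07, 1.071e-05 and 0.003953). Aimp2 was at 23.4, 22.3 and 21.9 CPM in DMSO and at 26.2, 28.7 and 26.4 CPM in CX-5461, with no overlap. Xpot, which exports tRNA from the nucleus, changed by -0.49 ± 0.05 (adjusted p = 1.1e-07). Of 11 tested genes for other synthetases and for editing or converting charged tRNA, 7 fell (63.6%, beside 36.5% of all genes), 2 rose and 2 did not pass. Gatc, a subunit of the amidotransferase that completes mitochondrial glutaminyl-tRNA, changed by -0.76 and Prorsd1 by -0.74.

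Of 20 tested genes of tRNA end processing, 10 fell (50%, beside 36.5% of all genes), 3 rose (15%, beside 37.2%) and 7 did not pass. Rpp38 and Rpp40, of the RNase P and MRP family, were at -0.85 and -0.70 and Elac1 at -0.56. The 3 that rose were Pop7, Tsen34 and Pop4, at 0.20, 0.19 and 0.17. Among 5 cytosolic elongation genes, Eef1a1, which brings charged tRNA to the ribosome, and Eef2 fell by 0.43 and 0.35, and 3 did not pass, so that 40% were lower beside 36.5% of all genes. The 9 mitochondrial translation factors had 3 higher, 3 lower and 3 not passed, or 33.3% in each direction, which is near the share of all genes. The elongation factor Tufm and its exchange factor Tsfm rose by 0.37 and 0.49, and the release factor Mtrf1l fell by 0.40. Of 21 tested genes of ATF4 and the amino acid response, 20 fell (95.2%, beside 36.5% of all genes), and Sesn2 was at -0.004 (adjusted p = 0.9411); the median was -1.01. Atf4 was at 1255, 1271 and 1282 CPM in DMSO and 617.1, 657.4 and 616.2 CPM in CX-5461, and Asns, asparagine synthetase, fell by 1.41 on the log2 scale. Trib3 and Chac1 had the largest falls of that list, by 2.18 and 1.95, and every cytosolic synthetase fell less than these. That list was known from earlier results of these data to be lower and is no independent evidence.

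**Figure D4:**
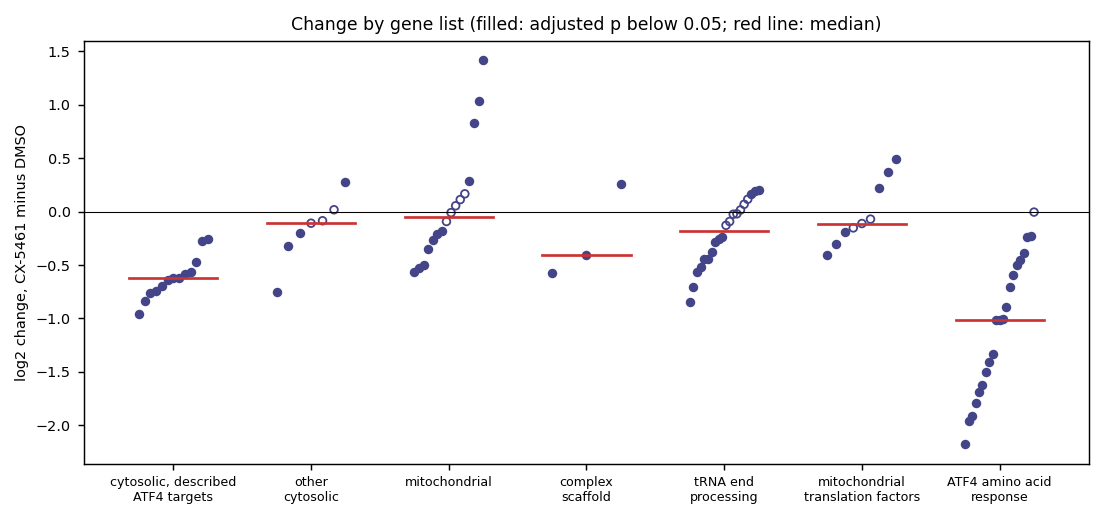
Log2 change (CX-5461 minus DMSO) of each tested gene in 7 lists, filled where the edgeR adjusted p was below 0.05, with the median of the list as a red line. The 13 cytosolic genes described as ATF4 targets lie between -0.96 and -0.25, the 16 mitochondrial genes between -0.57 and 1.42, and the ATF4 amino acid response has the lowest median, -1.01.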

How the data were processed

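RNA was measured in 6 libraries, 3 with DMSO and 3 with CX-5461, grouped by sample title, and all 6 columns were matched to samples by name. The authors deposited whole-number counts per protein-coding gene, not normalized, and the submitters' processing notes name GRCm38 and mm10. The sources used here give no aligner, counter or strand setting. Coordinates, exonic lengths and shared 50-base stretches (either strand, genes that do not overlap) are from GENCODE M21 (GRCm38).

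Genes were kept by filterByExpr (minimum count 10) and tested with edgeR 4.0.16 in R 4.3.3, using TMM factors, the quasi-likelihood F test (two-sided) with treatment as the only term, and Benjamini-Hochberg adjustment over all tested genes at 0.05. Standard errors were derived from the change and its F statistic. The common biological coefficient of variation was 4.86%. The test was checked on simulated counts in which few genes changed, so the check does not cover data in which most genes moved. CPM are scaled by TMM. Replicates were never alike to within sampling noise. Chi-square per degree of freedom was 1.58 to 2.57 between DMSO libraries and 5.625 to 9.36 between CX-5461 libraries. Replicate numbers were not taken to pair the libraries, since the labels do not say that they mark a shared culture. As alternatives, limma-voom (limma 3.58.1) and DESeq2 1.42.0 replaced the test. RLE factors or plain totals replaced TMM, the filter was dropped or set to 1 CPM in 3 libraries, and the threshold was set to 0.01. A replicate block, an offset for GC content (alone or with the block) or an offset for gene span was added, and single libraries were left out. Sums without Lars2 and the pairs' changes under each alternative were added after seeing the data.

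The members and lists were chosen with earlier results of these data known. All members are named. Values per library are given for the 6 cytosolic and 6 mitochondrial members with the largest called changes and for called members that went against the majority of their compartment, and Lars2 was added after its values were seen. From each other list up to 3 called genes with the largest change and a mean of 5 CPM or more are named, with Atf4, Asns, Ddit3, Xpot and the scaffold genes always included, and a few items are not reported here.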

Additional observations from a re-analysis of the deposited data

How the results depend on the processing

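The counts of cytosolic and mitochondrial members called in each direction stayed within 1.5 times under every alternative run, except that the gene-span offset called 2 cytosolic genes higher in place of 1. Of the single members' changes, 576 kept direction and side of the threshold, 12 lost the call in the same direction, 10 gained one and 14 changed sign, 1 of which (Fars2) also lost its call. The cytosolic median was -0.65 with library totals only (mitochondrial -0.12), -0.62 with a GC offset and with that offset plus the replicate block, and -0.52 with the gene-span offset (mitochondrial -0.14, difference -0.38). Library totals shifted the median of all genes to -0.079. Leaving out 1 library gave differences of the medians from -0.579 to -0.494. The replicate block gave a cytosolic median of -0.58 and changed no member's call; the correlation of same-numbered libraries' deviations was 0.04, 0.004 and -0.008, so the numbers are not taken to pair them. The fold of the cytosolic to mitochondrial ratio was 0.804, and 0.650 without Lars2.

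Signs turned for Hars (-0.055 with library totals, -0.057 with the GC offset with and without the block, and -0.006 without CX-5461 replicate 2, from -0.006 to 0.031 over libraries left out), Tars2 (-0.019 with library totals and -0.022 with both GC settings), Dars (0.044 with both GC settings), Aars2 (0.082 with the gene-span offset, and 0.042 and 0.025 without DMSO replicate 2 or CX-5461 replicate 2, from -0.043 to 0.042 over libraries left out), Wars2 (0.002 without CX-5461 replicate 3, from -0.163 to 0.002 over libraries left out) and Fars2 (-0.18 with the gene-span offset). The cause was not tested. Only 3 libraries a group limit the precision, and Pars2 and Fars2, the members with the lowest CPM in DMSO, have the largest standard errors.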
